A study of Mus musculus with 6 samples.

Results

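Interleukins, chemokines, ligands of the TNF superfamily and the receptors of all 3 classes were followed in the open chromatin of mouse lung endothelial cells. The genes were those whose symbol begins with Il, Ccl, Ccr, Cxcl, Cxcr or Ackr and a digit, or with Tnfsf or Tnfrsf. A region of open chromatin belonged to the gene the authors' table assigns to it or, where the table assigns none, to the gene with the nearest protein-coding start site of that table within 100 kb. This gave 292 regions of 83 genes among the 58172 regions of the series, 104 by the authors' assignment and 188 by distance. RefSeq lists 173 mouse protein-coding genes with such a symbol. The nearest RefSeq gene body was that of the same gene for 220 of the regions and that of another gene for 72, and distance alone says nothing of which gene a region acts on. The assay was ATAC-seq, where Tn5 transposase cuts open DNA and leaves sequencing adapters in it, with 3 libraries of Cre-negative WT cells and 3 of Cre-positive CSE-KO cells. CSE is cystathionine gamma-lyase, the enzyme encoded by Cth that makes cysteine from cystathionine. The labels give neither the age and sex of the mice nor the promoter that drives Cre. All CSE-KO libraries and no WT library carry Cre, so Cre and the loss of the enzyme cannot be told apart. The labels do not say that the libraries come from separate animals, so p-values here reflect the spread among libraries, which may be technical.

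Interleukins are secreted signals that act through paired receptor chains and, for most families, through JAK kinases and STAT factors. Chemokines guide leukocytes along and across the vessel wall through G protein-coupled receptors, while atypical receptors bind chemokines and clear them. TNF superfamily ligands bind trimeric receptors that recruit adaptors and either activate NF-kB or start cell death. Endothelial cells of the lung present chemokines and respond to interleukins and TNF by changing adhesion and permeability.

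The promoters where accessibility changed are shown first, since their letters can be read beside the values that follow. RefSeq promoter windows (GRCm38.p6, the assembly of mm10) matched 54 of the 83 genes, each on the chromosome of its regions. The 250 bases before the annotated start are printed 5′ to 3′ on the strand of the gene, for 4 of the 7 genes with a called promoter region. These are Ccr3 (chr9:124021721-124021970, plus strand), Il17rd (chr14:27038751-27039000, plus strand), Tnfrsf1a (chr6:125349473-125349722, plus strand) and Il3ra (chr14:14346245-14346494, plus strand). Capitals mark matches on either strand to NF-kB (GGANTTTCC), AP-1 (TGANTCA), STAT (TTCNNNGAA) or ETS (CAGGAAG) motifs.
Ccr3: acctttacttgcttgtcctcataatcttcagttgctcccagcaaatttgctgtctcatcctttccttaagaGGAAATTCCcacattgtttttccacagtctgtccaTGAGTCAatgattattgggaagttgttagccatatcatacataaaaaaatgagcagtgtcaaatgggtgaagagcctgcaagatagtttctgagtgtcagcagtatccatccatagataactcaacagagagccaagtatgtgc
Il17rd: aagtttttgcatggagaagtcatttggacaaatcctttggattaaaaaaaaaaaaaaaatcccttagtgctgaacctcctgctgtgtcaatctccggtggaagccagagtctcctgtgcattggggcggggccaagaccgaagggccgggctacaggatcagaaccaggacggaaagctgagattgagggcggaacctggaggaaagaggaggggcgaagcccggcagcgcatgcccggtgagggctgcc
Tnfrsf1a: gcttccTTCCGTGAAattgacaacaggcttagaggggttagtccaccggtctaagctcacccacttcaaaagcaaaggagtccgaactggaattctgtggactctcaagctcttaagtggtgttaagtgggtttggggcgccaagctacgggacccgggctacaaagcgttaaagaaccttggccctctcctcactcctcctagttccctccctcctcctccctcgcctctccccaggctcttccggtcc
Il3ra: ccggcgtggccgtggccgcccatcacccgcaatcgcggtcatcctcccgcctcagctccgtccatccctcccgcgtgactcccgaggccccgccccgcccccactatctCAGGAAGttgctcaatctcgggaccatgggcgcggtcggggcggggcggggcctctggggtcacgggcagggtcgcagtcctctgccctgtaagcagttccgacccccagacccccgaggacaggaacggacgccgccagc

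Base composition differed among these windows. The Ccr3 window was 40.4% G or C and held 0 CpG, while that of Il3ra was 72.4% G or C with 27 CpG. Windows of Il17rd and Tnfrsf1a lay between them, with 54.4% and 55.6% G or C and 10 and 9 CpG. The called regions covered 237 of the 250 bases at Ccr3, all 250 at Il3ra, 134 at Il17rd and 132 at Tnfrsf1a. At Tnfrsf1a the called region covered bases 119 to 250 of the window, so the STAT match at base 7 lay outside it. Il4r, which RefSeq names Il4ra, is not shown because its called region did not overlap the window.

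Over the 250 bases before the start, the NF-kB motif was found in 8 of 54 windows of these genes (14.8%) and in 1.04% of the 17491 protein-coding windows. AP-1 was found in 20.4% against 6.22%, ETS in 20.4% against 9.97% and STAT in 7.41% against 6.70%. The median window of these genes was 54.4% G or C with 7 CpG, against 55.2% and 10 over all protein-coding windows. For these genes, the window closest to the gene's nearest region was taken. For all protein-coding genes it was the first window listed, whether or not the gene had a region. The windows were thus not chosen alike, and no difference in these shares was tested. Besides Ccr3, windows with the NF-kB motif belonged to Cxcl1, Cxcl2, Cxcl3, Cxcl10, Il6, Il18rap and Il1rl2. For 5 of them the 30 bases around the match, in capitals, follow on the strand of the gene. The search pattern fixes nearly all letters of a match, so the likeness of the matches follows from the search.
Cxcl1 (chr5:90891165-90891194, plus strand): ctgtactccgGGAATTTCCctggcccggag
Cxcl2 (chr5:90903793-90903822, plus strand): ctgagctcagGGAATTTCCctggtccccgg
Cxcl3 (chr5:90786019-90786048, plus strand): agctgcggggGGAATTTCCccagcccgggc
Cxcl10 (chr5:92349028-92349057, minus strand): gaggggagagGGAAATTCCaagttcatggg
Il6 (chr5:30013061-30013090, plus strand): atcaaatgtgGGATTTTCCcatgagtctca
A region covered the match at Ccr3, Cxcl1, Cxcl10 and Il18rap, and only that of Ccr3 was called. A match describes the letters and does not show that a factor binds.

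The deposited values are reads scaled by the authors, and they summed to 5242490 to 5368491 in WT and 5437296 to 5547417 in CSE-KO libraries. Of the whole numbers from 1 to 100, all 100 occur in each WT column and 61, 65 and 61 in the CSE-KO columns. From this spacing 1 read was worth about 1.64, 1.54 and 1.64 in the CSE-KO columns, which puts about 3320000 to 3610000 reads in regions there, against at least 5240000 to 5370000 in WT. The median SD between libraries at the 292 regions was 0.22 (log2) in WT and 0.32 in CSE-KO, against 0.20 and 0.30 at all tested regions. Cth, the targeted gene, had promoter values of 195, 157 and 167 in WT against 11, 6 and 2 in CSE-KO, so no library went against its label. Of 65 regions of 10 endothelial marker genes, 3 were higher and 19 lower in CSE-KO, where 7.70% of all tested regions were higher and 9.60% lower. The summed values of the 65 regions ranged from 7396 to 7793 in WT and from 5805 to 6180 in CSE-KO. Pecam1 and Vwf, of the same list, have no region under the rule. Only 7 of 22 leukocyte markers had a region, and Ptprc, Cd3e, Itgam and Ms4a1 had none. Their 15 regions, of which 0 were higher and 1 lower, summed to 1016 to 1098 in WT and to 969 to 1123 in CSE-KO. In bulk chromatin, fewer cells with an open region and less opening in each cell cannot be told apart.

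Accessibility of the cytokine genes changed in both directions, by 22 regions higher and 36 lower in CSE-KO of 292. All 292 passed the minimum mean value of 5 over the 6 libraries. The call used limma on log2(value + 1) with Benjamini-Hochberg adjustment over 58129 regions at 0.05, where 7.70% of all regions were higher and 9.60% lower, 17.3% together. The members' shares were 7.53% higher and 12.3% lower, 19.9% together. The median change was -0.06 (log2) against -0.0041 over all tested regions. At all 58 called regions every library of one genotype lay above every library of the other. A call on 3 against 3 libraries favours such separation, so this adds no support to the calls. Groups did not overlap at 114 of the 292 regions (39.0%), against 39.5% of all tested regions. Without WT replicate 1, 2 or 3 the calls fell to 9, 8 and 9 higher and to 11, 12 and 13 lower, and the share over all regions fell to 6.19%, 6.27% and 6.01%. Without a CSE-KO library 15 to 18 were higher and 28 to 37 lower. The share over all regions was then 15.3%, 14.5% and 14.8% without CSE-KO replicate 1, 2 and 3. Among regions assigned by the authors, 10 of 104 were higher (9.62%) and 7 lower (6.73%), against 5.64% higher and 3.70% lower of all regions so assigned. Among those assigned by distance, 12 of 188 were higher (6.38%) and 29 lower (15.4%), against 7.38% and 12.03% of all regions assigned by distance.

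Of the 83 genes, 15 had only higher calls, 21 only lower calls, 4 both and 43 none. Of the 12574 genes of the whole table, 1696 had only higher calls, 1880 only lower calls, 553 both and 8445 none. Genes with more regions have more chances of a call, and the number of regions was not matched. The 4 genes with both were Ccl9, Cxcl5, Ackr3 and Il17rd. Ligands and their binding proteins had 9 regions higher and 15 lower of 137 (42 genes), and receptors 13 higher and 21 lower of 155 (41 genes). For these counts and those by family, the share over all tested regions was 7.70% higher and 9.60% lower. Per family, the counts of higher and lower regions were 2 and 7 of 54 for interleukins and 5 and 10 of 74 for interleukin receptors. They were 3 and 3 of 25 for CC ligands, 3 and 1 of 31 for CXC ligands and 3 and 3 of 23 for CC receptors. CXC receptors had 0 and 1 of 4, and atypical chemokine receptors 1 and 2 of 8. TNF ligands had 1 and 4 of 27, and TNF receptors 4 and 5 of 46. No difference between families was tested.

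**Figure D1:**
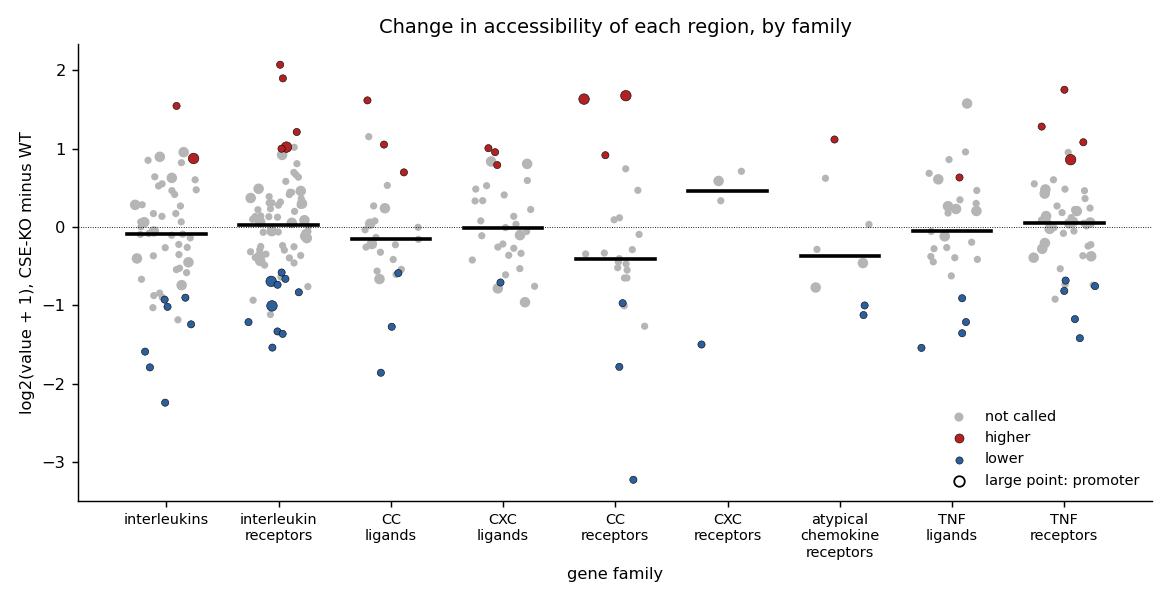
Change of each of the 292 regions in 9 gene families, as log2(value + 1) in CSE-KO minus WT. Points are regions, large points promoter regions, colours the call, and black lines family medians. Higher and lower calls occur in 8 of the families, while the 4 regions of CXC receptors hold 1 lower call only.

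Most called promoters were higher in CSE-KO, as were most called promoters of the whole table. A promoter region was one within 1000 bp of a start site by the authors' distance. Of 59 such regions in 57 genes, 5 were higher (8.47%) and 2 lower (3.39%), 11.9% together. Of the 13246 promoter regions tested, 5.23% were higher and 3.29% lower, 8.52% together. The median change of the 59 regions was 0.06 (log2), against 0.11 for all promoter regions. The 59 regions were weakly open, with a median WT value of 63.3 against 142 for all promoter regions. Ligand promoters had 1 higher and 0 lower calls of 25, and receptor promoters 4 and 2 of 34. Without WT replicate 1, 2 or 3 the higher promoter calls fell to 1, 2 and 3 and the lower calls to 1. The share called over all regions, promoter or not, fell to 6.19%, 6.27% and 6.01% in these runs.

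The promoter of Ccr3 on chromosome 9 was among those that rose. Ccr3, the eotaxin receptor of eosinophils, had values of 14, 14 and 28 in WT against 67, 54 and 51 in CSE-KO at its promoter (124021734 to 124021980). The lowest CSE-KO library was above the highest WT library, and the change was 1.63 ± 0.29 (log2, SE), 3.1-fold, with an adjusted p of 0.0131 by limma. A second Ccr3 region, 1.27 kb inside the gene, had 63, 61 and 68 in WT against 105, 123 and 139 in CSE-KO (1.89-fold, adjusted p = 0.0157). Both Ccr3 calls ended without WT replicate 1 or 2, and that of the inner region also without WT replicate 3 (adjusted p up to 0.0550 and 0.0668). Of the leukocyte marker regions given above, none was called higher, but only 7 of the 22 markers had a region. The part of leukocytes in the Ccr3 rise was not tested.

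At Il17rd, a member of the interleukin 17 receptor family that restrains growth factor signalling, 3 of 5 regions were called. The promoter (chromosome 14, 27038867 to 27039599) had 84, 99 and 73 in WT against 199, 155 and 167 in CSE-KO, a change of 1.02 ± 0.19 (log2, SE) with an adjusted p of 0.0152. A weak region 9.04 kb upstream rose as well, from 11, 14 and 18 to 31, 37 and 34 (2.32-fold, adjusted p = 0.0122). A region 6.21 kb inside the gene went the other way, with 90, 98 and 83 in WT against 57, 52 and 61 in CSE-KO (1.58-fold lower, adjusted p = 0.0340). The promoter lost its call without WT replicate 1 or 3 (adjusted p up to 0.0642), the upstream region without WT replicate 2 (0.0518), and the inner region with any WT library or CSE-KO replicate 1 or 2 left out (up to 0.122).

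Tnfrsf1a and Il23a also had promoters that rose. Tnfrsf1a encodes the widely expressed TNF receptor that carries a death domain. Its promoter (chromosome 6, 125349591 to 125349973) had 38, 28 and 37 in WT against 57, 67 and 64 in CSE-KO, a change of 0.86 ± 0.19 (log2, SE) with an adjusted p of 0.0234. A stronger region 5.55 kb downstream of the start had 165, 133 and 130 in WT against 123, 132 and 148 in CSE-KO, and was not called. Il23a encodes the subunit that sets interleukin 23 apart from interleukin 12. Its promoter (chromosome 10, 128297893 to 128298528) had 69, 50 and 54 in WT against 108, 90 and 121 in CSE-KO (0.87 ± 0.20, adjusted p = 0.0283). The call of Tnfrsf1a ended with any WT library or CSE-KO replicate 2 left out (adjusted p up to 0.0838), and that of Il23a with any WT library or CSE-KO replicate 1 or 3 left out (up to 0.103).

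Il3ra and Il4r were the promoters that fell. Il3ra, the chain that binds interleukin 3, is among the 5 most accessible promoters of these genes in WT. Its region (chromosome 14, 14345528 to 14346804) had 309, 316 and 329 in WT against 167, 241 and 187 in CSE-KO, a change of -0.70 ± 0.19 (log2, SE) with an adjusted p of 0.0451. Il4r encodes the chain that receptors for interleukins 4 and 13 share. The region centred 0.945 kb upstream of its start (chromosome 7, 125550829 to 125551521) had 286, 231 and 235 in WT against 121, 132 and 118 in CSE-KO (-1.01 ± 0.17, adjusted p = 0.0107). The neighbouring region at the start itself (125551721 to 125552667) had 242, 266 and 213 in WT against 301, 231 and 236 in CSE-KO, where the groups overlap. The fall at Il4r thus lay beside the start and not over it, and its call held with any 1 library left out. That of Il3ra ended with any WT library or CSE-KO replicate 1 or 3 left out (adjusted p up to 0.138).

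**Figure D2:**
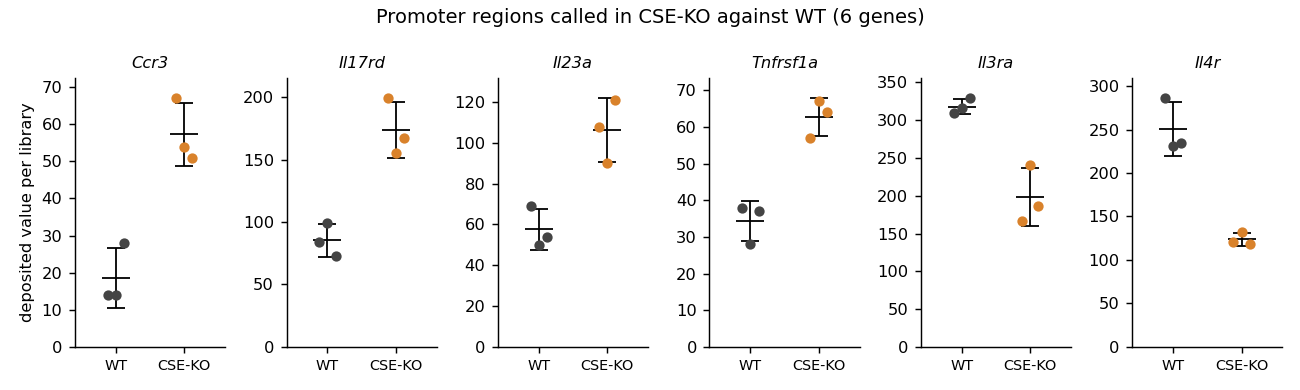
Deposited values of 6 of the 7 called promoter regions in 3 WT and 3 CSE-KO libraries, each panel with its own axis from 0. Points are libraries, and bars the mean ± SD. The libraries of the 2 genotypes do not overlap in any panel, which the call itself favours. Ccr3 has WT values of 28 or less.

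The groups overlapped at the promoters of Il6st, Il6ra, Il7 and Ccl25. Il6st, the signal-transducing chain of the interleukin 6 family, had 460, 414 and 369 in WT against 345, 394 and 384 in CSE-KO (adjusted p = 0.587). Il6ra, which binds interleukin 6, had 485, 369 and 441 against 368, 395 and 425 (adjusted p = 0.676). Il7, a growth factor of lymphocytes, had 408, 354 and 347 against 390, 372 and 392 (adjusted p = 0.819). At Ccl25, a chemokine of gut and thymus, the region also lies next to Elavl1, and it had 401, 323 and 351 against 328, 490 and 308 (adjusted p = 0.918). A p above 0.05 does not show that these promoters were equal.

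Among interleukins, the falls were strongest at Il10 and Il12a, which act on leukocytes in opposite ways. Il10, a cytokine that restrains inflammation, had 2 of 5 regions lower. The one 16.3 kb upstream (chromosome 1, 131003263 to 131003730) had 93, 86 and 89 in WT against 18, 29 and 30 in CSE-KO, 3.47-fold lower with an adjusted p of 0.0053. The other lies 23.2 kb downstream, beside Mapkapk2, with 41, 55 and 45 in WT against 29, 18 and 28 in CSE-KO (1.87-fold lower, adjusted p = 0.0399). Nearest to the start, a region 1.85 kb away had 29, 25 and 38 against 29, 31 and 25, with overlapping groups (adjusted p = 0.781). The first call held with any 1 library left out, and the second ended with any WT library or CSE-KO replicate 2 or 3 left out (adjusted p up to 0.132).

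Il12a encodes the p35 subunit of interleukin 12 and had the most regions among the 83 genes, 11, of which 3 were lower. All 3 lay upstream (chromosome 3). The region at 6.85 kb had 29, 25 and 26 in WT against 7, 11 and 7 in CSE-KO, 3.02-fold lower (adjusted p = 0.0062). Its neighbour at 5.55 kb had 26, 28 and 21 in WT against 8, 2 and 5 in CSE-KO, 4.74-fold lower (adjusted p = 0.0117), a fold that rests on values of a few reads. At 27.96 kb the values were 64, 58 and 52 in WT against 28, 23 and 34 in CSE-KO (2.03-fold lower, adjusted p = 0.0168). The region 13.49 kb upstream, between the called ones, had 78, 58 and 66 against 95, 61 and 59 and was not called. The call at 6.85 kb held with any 1 library left out, that at 5.55 kb ended without WT replicate 1 or 2 (adjusted p up to 0.0507) and that at 27.96 kb with any WT library left out (up to 0.0698).

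Other interleukin regions called were near Il17b, Il17d and Il1rn. A region 52.1 kb upstream of Il17b, with Csnk1a1 as the nearest gene body, had 217, 213 and 228 in WT against 109, 84 and 85 in CSE-KO (2.37-fold lower, adjusted p = 0.0068, held with any 1 library left out). Within Il17d, a region 12.8 kb from the start had 90, 83 and 114 in WT against 44, 44 and 62 in CSE-KO (1.90-fold lower, adjusted p = 0.0289). Il1rn, the natural antagonist of interleukin 1, had the only distal rise of the family, 19.6 kb upstream, from 15, 9 and 8 to 38, 26 and 33 (2.92-fold, adjusted p = 0.0118). The calls ended for Il1rn without WT replicate 2 or 3 (adjusted p up to 0.0521) and for Il17d with any WT library or CSE-KO replicate 1 or 2 left out (up to 0.102). Il34, a ligand of the receptor for colony stimulating factor 1, had 10 regions and no call. At the Il6 promoter, which holds the NF-kB match shown above outside its region, values were 11, 21 and 20 in WT against 34, 29 and 33 in CSE-KO. The groups did not overlap there, yet the change of 0.90 ± 0.26 did not pass (adjusted p = 0.0558).

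Interleukin receptors had distal rises at chains for interleukins 13, 1 and 36. Il13ra1, which pairs with Il4r, rose at a region inside the gene 24.5 kb from its start (chromosome X, 36136449 to 36136742), from 17, 18 and 13 to 51, 67 and 69. This was 3.73-fold, with a log2 change of 1.90 ± 0.21 (SE) and an adjusted p of 0.0039. Il1rl2, the receptor of interleukin 36, had the steepest rise of all 292 regions, 4.20-fold, 68.8 kb downstream and closer to Il1rl1. Values there were 6, 10 and 11 in WT against 34, 52 and 36 in CSE-KO (adjusted p = 0.0059). Il1rap, the accessory chain of interleukin 1 and 33 receptors, rose at a region inside the gene from 39, 40 and 38 to 96, 84 and 61 (2.00-fold, adjusted p = 0.0200). The calls of Il13ra1 and Il1rl2 held with any 1 library left out, and that of Il1rap ended with any 1 WT library left out (adjusted p up to 0.0755). In the same receptor cluster on chromosome 1, Il1r1 had 8 regions and Il18rap 3, and none was called.

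Lower distal regions were found at receptors for interleukins 20, 6, 10 and 4. Il20rb, a chain shared by receptors for interleukins 19, 20 and 24, had 2 of 6 regions lower. The strong one lies inside the gene (chromosome 9, 100461680 to 100462578), with 398, 403 and 364 in WT against 196, 167 and 141 in CSE-KO (2.32-fold lower, adjusted p = 0.0081). The other, 1.88 kb upstream, had 53, 55 and 53 in WT against 28, 12 and 26 in CSE-KO (2.52-fold lower, adjusted p = 0.0297). Both chains of the interleukin 6 receptor had lower distal regions beside the promoters described above. Inside Il6ra, the region 13.8 kb from the start had 157, 165 and 147 in WT against 83, 72 and 36 in CSE-KO (2.58-fold lower, adjusted p = 0.0275). Upstream of Il6st, regions at 77.3 kb (29, 27 and 24 against 16, 18 and 13, adjusted p = 0.0359) and 58.6 kb (14, 18 and 20 against 7, 11 and 10, adjusted p = 0.0447) fell, and both lie nearer to Ankrd55. Il10rb had a weak region 33.9 kb downstream with 14, 13 and 18 in WT against 2, 8 and 5 in CSE-KO (adjusted p = 0.0369). A region 71.3 kb downstream of Il4r, inside Il21r, had 111, 105 and 114 in WT against 72, 81 and 67 in CSE-KO (adjusted p = 0.0473).

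Of these lower receptor regions, the call inside Il20rb alone held with any 1 library left out. Those upstream of Il20rb and inside Il6ra ended with any 1 WT library left out (adjusted p up to 0.0944 and 0.0918). The Il10rb call ended with any WT library or CSE-KO replicate 3 left out (up to 0.119), and both Il6st calls with any WT library or CSE-KO replicate 1 or 3 left out (up to 0.122 and 0.145). The call inside Il21r ended with any library left out (up to 0.148).

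CC chemokine ligands showed rises at Ccl20 and Ccl9 and falls at Ccl2, Ccl9 and Ccl25. Ccl20, the ligand of Ccr6, had 2 of 3 regions higher. Its region 3.38 kb downstream of the start had 81, 56 and 68 in WT against 109, 150 and 172 in CSE-KO (2.07-fold, adjusted p = 0.0256), and that 4.92 kb upstream had 36, 36 and 31 against 67, 55 and 48 (1.62-fold, adjusted p = 0.0434). Ccl2, which draws monocytes, had a strong region 2.78 kb upstream (chromosome 11, 82032163 to 82033412) with 565, 515 and 493 in WT against 387, 329 and 330 in CSE-KO. It was 1.50-fold lower, with an adjusted p of 0.0484. The Ccl2 promoter had 132, 117 and 115 in WT against 90, 58 and 84 in CSE-KO, without overlap, and did not pass (adjusted p = 0.0707). Ccl25 had a lower region 11.4 kb upstream, inside Elavl1, with 89, 87 and 73 against 39, 46 and 21 (2.42-fold, adjusted p = 0.0290).

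Ccl9, a mouse chemokine of myeloid cells, had distant regions that moved apart. The region 38.2 kb upstream rose from 12, 12 and 15 to 41, 52 and 34 (3.07-fold, adjusted p = 0.0057), while that 4.79 kb upstream fell from 13, 12 and 18 to 7, 2 and 2 (3.63-fold, adjusted p = 0.0232). Both lie nearer to the body of Ccl6, and none of the other 3 Ccl9 regions was called. The call at 38.2 kb held with any 1 library left out. The others ended with any WT library left out, which was all that ended Ccl25 (adjusted p up to 0.0985). Those of Ccl2, the nearer Ccl9 region and the downstream Ccl20 region also ended without CSE-KO replicate 2 or 3 (up to 0.155, 0.0848 and 0.0927), and the upstream Ccl20 region without CSE-KO replicate 1 or 2 (up to 0.144). Ccl5, Ccl7, Ccl17, Ccl4 and Ccl27a had no call.

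CXC ligands that attract neutrophils lie together on chromosome 5, and 2 of them rose at upstream regions. Cxcl2 had 93, 81 and 94 in WT against 247, 165 and 143 in CSE-KO at a region 3.21 kb upstream (90900271 to 90901045), 2.01-fold higher with an adjusted p of 0.0291. Cxcl5 rose 5.13 kb upstream, from 61, 50 and 44 to 137, 78 and 94 (1.94-fold, adjusted p = 0.0413), and fell 85.4 kb upstream, from 33, 31 and 29 to 21, 17 and 18 (1.63-fold, adjusted p = 0.0294). At the Cxcl1 promoter, whose NF-kB match is covered by the region, values were 105, 88 and 81 in WT against 44, 83 and 39 in CSE-KO (adjusted p = 0.114). Cxcl10, a ligand of Cxcr3 induced by interferon, had 42, 25 and 33 in WT against 69, 49 and 57 in CSE-KO at its promoter, a change of 0.81 ± 0.24 that did not pass (adjusted p = 0.0585). Cxcl12, the ligand of Cxcr4 and Ackr3, had 6 regions and no call, with 208, 181 and 173 against 157, 195 and 171 at its promoter. Cxcl17, a mucosal chemokine, rose 23.9 kb upstream from 32, 46 and 50 to 69, 77 and 74 (1.73-fold, adjusted p = 0.0416). The call of Cxcl2 ended with any 1 WT library left out (adjusted p up to 0.102), those of Cxcl5 also without CSE-KO replicate 1 or 3 for the rise and 2 or 3 for the fall (up to 0.135 and 0.106), and that of Cxcl17 with any library left out (up to 0.115).

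The receptors of Cxcl12 both had lower distal regions. Cxcr4, through which Cxcl12 guides vessel growth and leukocytes, fell at a region 20.9 kb upstream (chromosome 1, 128612814 to 128613508), from 172, 164 and 153 to 49, 66 and 57. This was 2.83-fold, a change of -1.50 ± 0.18 (log2, SE) with an adjusted p of 0.0045 that held with any 1 library left out. Its promoter ran the other way in value, with 148, 168 and 163 in WT against 194, 262 and 272 in CSE-KO, without overlap, and did not pass (adjusted p = 0.0751). Ackr3, which scavenges Cxcl12, fell 17.6 kb upstream from 52, 60 and 70 to 23, 40 and 28 (2.00-fold, adjusted p = 0.0322). It rose 30.8 kb downstream from 17, 29 and 16 to 49, 41 and 44 (2.18-fold, adjusted p = 0.0254). Ackr2, which clears inflammatory CC chemokines, fell 2.78 kb upstream from 69, 67 and 72 to 29, 35 and 30 (2.18-fold, adjusted p = 0.0072, held with any 1 library left out). The fall at Ackr3 ended with any WT library or CSE-KO replicate 1 or 3 left out (adjusted p up to 0.112), and the rise without replicate 1 or 3 of either genotype (up to 0.0937). Cxcr2, the neutrophil receptor, had 1 region with 87, 78 and 69 against 69, 107 and 128 and no call.

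Besides Ccr3, the CC receptors held falls at Ccr7 and Ccr4. Ccr7, which guides lymphocytes and dendritic cells to lymph nodes, had 2 of 10 regions lower, both downstream. That at 13.3 kb had 30, 28 and 21 in WT against 3, 5 and 0 in CSE-KO, and its log2 change of -3.23 ± 0.61 (SE) was the largest fall of the 292 regions (adjusted p = 0.0158). With 1 library at 0, that size depends on the pseudocount of 1. The other, at 11.4 kb, had 36, 44 and 52 in WT against 23, 17 and 26 in CSE-KO (1.96-fold lower, adjusted p = 0.0288). Ccr4, a receptor of T cells, had a lower region 23.3 kb upstream, inside Trim71, with 32, 23 and 41 against 5, 14 and 8 (3.45-fold, adjusted p = 0.0198). With any 1 WT library left out both Ccr7 calls ended, and that at 11.4 kb also without CSE-KO replicate 2 (adjusted p up to 0.0631 and 0.103). Without WT replicate 1 or 3 the Ccr4 call ended (up to 0.0741). Ccr10 had 2 regions and no call, with 81, 81 and 114 against 96, 89 and 112 at the stronger.

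Tnfsf10, which encodes the death ligand TRAIL, had the most called regions among the 83 genes, 4 lower of 8, all upstream. The strong region 46.6 kb from the start (chromosome 3, 27270021 to 27270854) had 380, 383 and 353 in WT against 126, 176 and 136 in CSE-KO, a change of -1.36 ± 0.18 (log2, SE) with an adjusted p of 0.0064. Beside it, the regions at 48.2 kb (48, 46 and 51 against 23, 18 and 20) and 49.5 kb (71, 62 and 59 against 28, 17 and 20) were 2.32-fold and 2.92-fold lower (adjusted p = 0.0066 and 0.0071). These 3 lie between Tnfsf10 and Nceh1, whose body is the nearest, and all 3 calls held with any 1 library left out. A region 14.3 kb upstream had 169, 160 and 133 in WT against 88, 72 and 84 in CSE-KO (1.88-fold lower, adjusted p = 0.0171), which was not called without WT replicate 1 or 2 (adjusted p up to 0.0714). The promoter, in contrast, had 92, 92 and 130 in WT against 136, 74 and 85 in CSE-KO, with overlapping groups and an adjusted p of 0.795.

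**Figure D3:**
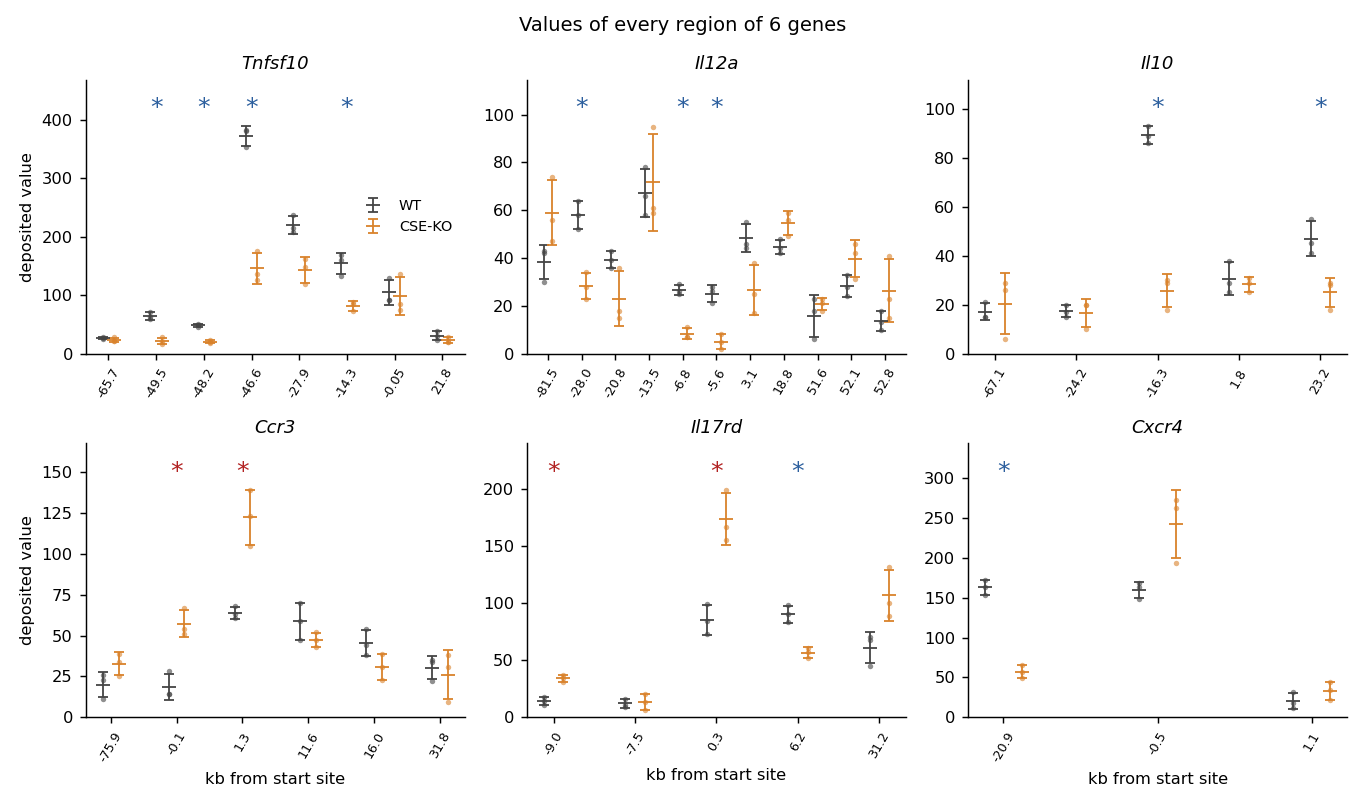
Deposited values of every region of 6 genes, ordered by position, with the distance from the start site in kb (negative upstream) below each. Dots are libraries and bars mean ± SD of 3 WT and 3 CSE-KO libraries, and asterisks mark calls, blue for lower and red for higher. At Tnfsf10, Il10 and Cxcr4 the lower regions lie away from the start, while at Ccr3 the higher regions are those nearest to it.

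The other TNF ligands held 1 call in all. Tnfsf18, the ligand of the receptor GITR, rose 13.2 kb downstream from 42, 44 and 47 to 78, 64 and 67 (1.55-fold, adjusted p = 0.0386), a call that ended with any library left out (adjusted p up to 0.128). Tnfsf9, the ligand of 4-1BB, had weak promoter values of 2, 5 and 11 in WT against 20, 12 and 20 in CSE-KO that did not pass (adjusted p = 0.0656). Tnfsf12, which encodes TWEAK, had 109, 92 and 109 against 111, 106 and 162 (adjusted p = 0.420).

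Among TNF receptors, the steepest rise was assigned to Tnfrsf22. The region (chromosome 7, 143666587 to 143667288) lies inside Tnfrsf23, and both genes encode decoy receptors for TRAIL in the mouse. It had 60, 59 and 47 in WT against 188, 185 and 190 in CSE-KO, a change of 1.75 ± 0.17 (log2, SE), 3.37-fold, with an adjusted p of 0.0031 that held with any 1 library left out. The 3 neighbours Tnfrsf22, Tnfrsf23 and Tnfrsf26 resemble each other in sequence, and short reads may not tell such copies apart. The promoters of Tnfrsf22 (130, 180 and 144 against 147, 146 and 102) and Tnfrsf23 (205, 205 and 207 against 132, 152 and 198) were not called. Tnfrsf26 rose 8.15 kb upstream, inside Tnfrsf22, from 13, 35 and 27 to 64, 47 and 64 (adjusted p = 0.0484), and this call ended with any library left out (adjusted p up to 0.105). Tnfrsf10b, the death receptor for TRAIL, fell 1.93 kb upstream from 46, 63 and 60 to 31, 15 and 30 (2.26-fold, adjusted p = 0.0388), a call that ended with any 1 WT library left out (up to 0.124).

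Tnfrsf8 (CD30) and Tnfrsf1b, the second TNF receptor, are neighbours on chromosome 4. Tnfrsf8 fell at a region 52.3 kb upstream (145367056 to 145367803), from 230, 204 and 200 to 91, 86 and 61, 2.68-fold with an adjusted p of 0.0073 that held with any 1 library left out. A Tnfrsf8 region 7.19 kb upstream had 106, 77 and 84 against 51, 61 and 52 (adjusted p = 0.0473), and that call ended with any library left out (adjusted p up to 0.149). Tnfrsf1b rose at a region 26.0 kb upstream, inside Tnfrsf8, from 26, 19 and 15 to 49, 38 and 41 (2.12-fold, adjusted p = 0.0232). Its promoter had 179, 139 and 151 against 234, 152 and 141, with overlap. Tnfrsf21, a death-domain receptor, fell 26.3 kb upstream from 67, 62 and 67 to 38, 38 and 34 (1.76-fold, adjusted p = 0.0154). Tnfrsf14, the receptor HVEM, fell 13.1 kb downstream from 66, 64 and 51 to 31, 34 and 41 (1.69-fold, adjusted p = 0.0369). Tnfrsf1b lost its call without CSE-KO replicate 1 or WT replicate 2 or 3 (up to 0.0821), Tnfrsf21 with any 1 WT library left out (up to 0.0669), and Tnfrsf14 with any WT library or CSE-KO replicate 1 or 2 left out (up to 0.125). Tnfrsf11a had 6 regions and no call.

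Calls that held with each of the 6 libraries left out in turn numbered 16 of the 58, of which 5 were higher and 11 lower. The share of all tested regions that kept a call in this way is not given here. The count therefore does not set these genes apart from the whole table. The higher regions included those of Il1rl2, Il13ra1, Tnfrsf22 and Ccl9. Lower ones were assigned to Il10, Il12a, Il17b, Il20rb, Il4r, Ackr2, Cxcr4, Tnfrsf8 and, with 3 regions, Tnfsf10. Of these named regions only that of Il4r was a promoter region.

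**Figure D4:**
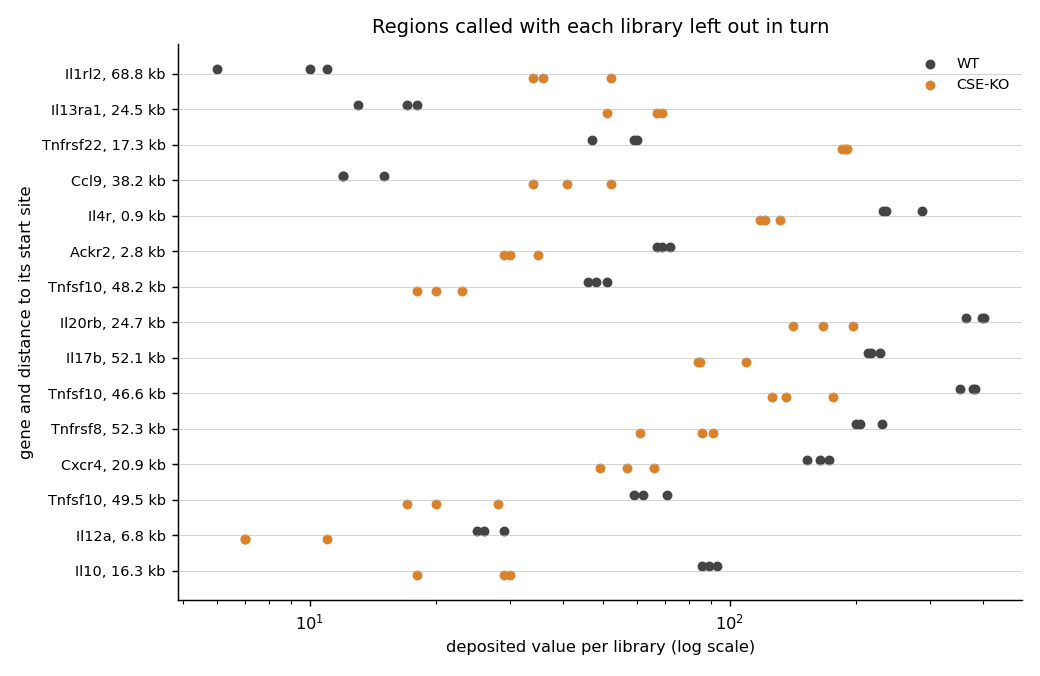
Values in 3 WT and 3 CSE-KO libraries (log scale) at 15 of the 16 regions whose call held with each library left out in turn, labelled with gene and distance to its start site. Points are libraries. In each row all libraries of one genotype lie to one side of the other, which the choice of rows by their calls favours. CSE-KO lies to the right in the 4 uppermost rows and to the left in the 11 below.

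By position, 24 of the 34 lower distal calls lay upstream of the genes. Of 127 distal regions upstream, 10 were higher and 24 lower (26.8% called, against 19.3% of all distal upstream regions). Of 61 inside the gene body 3 were higher and 4 lower (11.5% called, against 18.3% of all distal gene-body regions). Of 45 downstream 4 were higher and 6 lower (22.2% called, against 18.9% of all distal downstream regions). All distal regions together gave 17 higher and 34 lower of 233, against 8.43% higher and 11.5% lower of all 44883 distal regions, 19.9% together. The median change of the distal regions was -0.09 (log2), against -0.06 over all distal regions. Endothelial marker regions had 19 lower calls of 65, as given above, and their part in the lower calls of the cytokine genes was not tested.

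**Figure D5:**
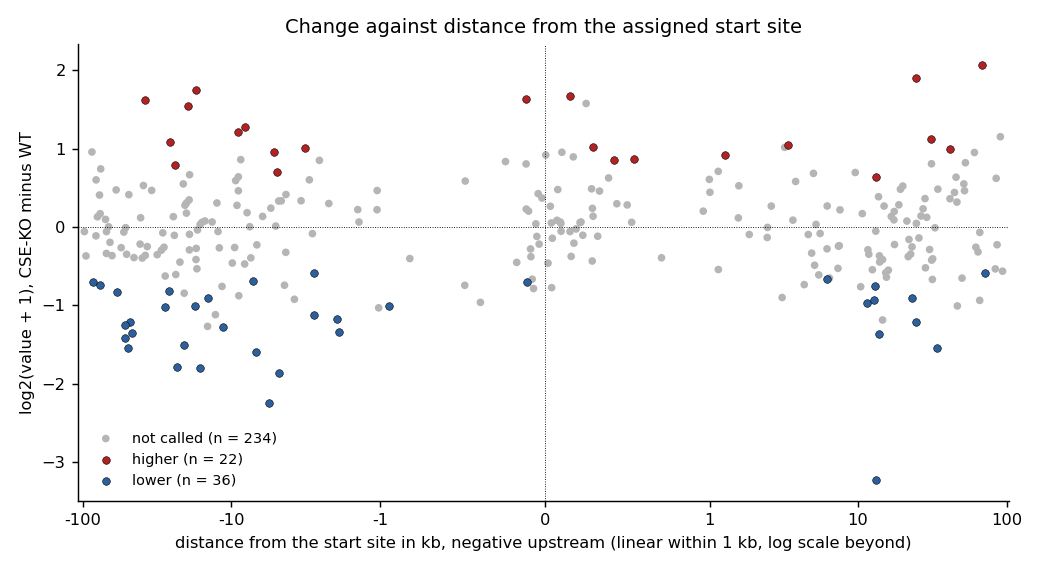
Change of the 292 regions (log2(value + 1), CSE-KO minus WT) against distance from the assigned start site, linear within 1 kb and on a log scale beyond. Points are regions and colours the call. Within 1 kb of the start 5 regions are higher and 2 lower, and most of the 34 lower calls beyond it lie upstream.

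Signalling genes downstream of these receptors were read from lists of other pathway genes. Of 23 JAK-STAT genes 19 had 84 regions, of which 6 were higher and 5 lower, where 17.3% of all regions were called. Tyk2, a kinase of interferon and interleukin 12 receptors, held 2 of the lower ones, among them its promoter, with 223, 193 and 187 against 126, 147 and 115 (adjusted p = 0.0478). Rises were found near Socs1, Socs5 and Socs6, members of the family that inhibits cytokine signalling, near Stat2, Stat5b and Jak1. The region near Socs1 had 165, 127 and 158 in WT against 299, 328 and 307 in CSE-KO (adjusted p = 0.0102).

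Adaptors and kinases of interleukin 1 and TNF receptors had 3 regions higher and 6 lower of 70, in 21 of 22 genes. For this list and the next, the share over all regions was 7.70% higher and 9.60% lower. Tradd, the adaptor of Tnfrsf1a, rose at its promoter from 80, 67 and 77 to 149, 165 and 149, a change of 1.04 ± 0.16 (log2, SE) with an adjusted p of 0.0090. Lower regions lay near Traf6, Irak2, Traf3 and Tnfaip3, the last of which also had a higher one. Chemokine receptor signalling genes had 2 regions higher and 13 lower of 61, in 11 of 14 genes. Of the 13 lower regions 11 belonged to Elmo1, a partner of Dock proteins in Rac activation, which had 20 regions. The list's count therefore rests on this gene.

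Relatives that the name rule does not take had 8 regions higher and 4 lower of 77, in 21 of 37 genes, and Tnf, Lta, Cx3cr1 and Fasl had no region. Cd40, a TNF receptor family member, rose 19.2 kb from its start from 40, 38 and 20 to 93, 123 and 166 (adjusted p = 0.0109). Csf1 and Csf2ra rose at 2 regions each. Fas, a death receptor, rose at its promoter from 36, 50 and 55 to 74, 97 and 75 (adjusted p = 0.0475) and fell at 2 regions farther away. Over the 4 lists 19 of 292 regions were higher and 28 lower, 16.1% together against 17.3% of all regions. Without WT replicate 1, 2 or 3 the counts fell to 11, 7 and 9 higher and to 11, 9 and 11 lower, while the share over all regions fell to 6.19%, 6.27% and 6.01%.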

How the data were processed

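ATAC-seq libraries were made from 50000 cells each with Tn5 and sequenced as pairs of 38 bases, per the labels' protocols. The submitters' processing notes name mm10, DESeq2 1.26.0, Picard 3.1.1, STAR 2.7.3a and Trimmomatic 0.39, without their roles. Neither the peak caller nor a Tn5 shift of reads is given in the sources used here. Values were handled as a score, not as counts, since the authors' whole numbers bear marks of reads that were scaled and rounded, so no count model was run.

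From these values limma 3.58.1 in R 4.3.3 (eBayes, no trend, not robust) was fitted to log2(value + 1) over all 58129 regions with a mean of at least 5, with Benjamini-Hochberg adjustment at 0.05. It was tested on simulated data. Fold changes are on that scale, which understates changes of weak regions. Groups and replicate numbers come from the sample titles. Another 6085 regions with an assigned gene but no symbol could not enter.

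The genes and lists were chosen with earlier results of these data known. Named regions were all called promoters, up to 4 called distal regions per family and direction by smallest adjusted p (1 per gene), the 2 strongest regions per family without a call, genes with 3 or more calls and the 5 most open promoters in WT. Further regions were named after their values were seen. Some genes that the rules take are counted but not reported here. Alternatives changed the pseudocount (0.5 and 5), the minimum mean (none and 20), the scaling, the variance model, library weights, the replicate block, the assignment, the promoter width (2500 bp) and the libraries. Marker lists for mural cells and fibroblasts (24 regions, 1 higher and 3 lower) and lung epithelium (36 regions, 3 higher and 2 lower) were also read. Of all tested regions 17.3% were called.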

Additional observations from a re-analysis of the deposited data

How the results depend on the processing

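None of the 50 called regions that the naming rule takes changed direction under any alternative run, and 16 of them kept the call in all. The like share over all regions is not given here. With a library left out, higher regions ranged from 8 to 18 and lower from 11 to 37, higher promoters from 1 to 5 and lower ones from 1 to 3. The share of all regions called ranged from 6.01% to 15.3% in these runs. Families with more lower than higher calls ranged from 3 to 7, other pathway regions from 7 to 20 higher and from 9 to 28 lower, and the median change from -0.0806 to -0.0099 (log2). Regions without overlap ranged from 136 to 150. Overlap is rarer with fewer libraries, and the share of all regions without overlap was not computed for these runs. Only uncalled regions changed sign: Ccl25 at its start (from -0.17 to 0.17, lower without CSE-KO replicate 2 or WT replicate 2), Ackr2 at 16.2 kb (-0.031 to 0.073, lower without CSE-KO replicate 3 or WT replicate 2) and Tnfrsf26 at 3.64 kb (-0.011 to 0.26, lower without WT replicate 2). With the authors' assignments alone, which leaves 104 regions, 10 were higher and 7 lower, the median was 0.075 and 2 families had more lower calls. Groups did not overlap at 42 of the 104 (40.4%), against 36.1% of all regions so assigned. A pseudocount of 5 gave 8 higher promoters, and a promoter width of 2500 bp gave 4 lower ones. That pseudocount raised the share called over all regions to 20.4%, and the shares over all promoters are not given here for either run. With a variance trend and robust fit, promoters were 9 higher and 4 lower and other pathway regions 40 and 49, where 26.6% of all regions were called. Keeping only regions whose nearest RefSeq body is the same gene, an alternative chosen after seeing the data, left 17 higher and 23 lower of 220. The share over all regions was not computed for this rule. Same-numbered libraries of the 2 genotypes shared no deviation that could be seen (correlations of deviations from -0.011 to 0.014 over all pairs). This does not show that they were prepared apart. With a replicate block 10.3% of all regions were called, against 17.3% without it. In that run 15 regions were higher and 20 lower, promoters were 3 higher and 1 lower, and other pathway regions 11 and 15. The cause of these changes was not tested, other than fewer regions or libraries. Depth limits weak regions, where a CSE-KO value steps by about 1.6 per read.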
